A study of Mus musculus with 12 samples.

Results

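The replication-dependent histone genes of the mouse were followed in RNA sequencing of the myoblast line Sol8, with and without an intact Gne gene. The genes were taken as the protein-coding rows whose symbol begins with Hist1h, Hist2h, Hist3h or Hist4h and which had at least 10 reads summed over the 12 libraries. Of the 48586 genes with a count, 70 carry such a symbol, 67 of these are protein coding, and 56 passed the minimum, while 11 did not. Nearest to it were Hist1h2ag, kept with 12 reads in all, and Hist1h3h and Hist2h3b, left out with 8 reads each. By class these are 6 linker histone H1, 14 H2A, 15 H2B, 9 H3 and 12 H4 genes. By cluster, 48 lie in cluster 1 on chromosome 13, 6 in cluster 2 on chromosome 3, 1 in cluster 3 on chromosome 11 and 1 in cluster 4 on chromosome 6.

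Core histones H2A, H2B, H3 and H4 form the octamer around which DNA is wound, and H1 binds the DNA between octamers. The genes of these clusters are transcribed mainly in S phase, when new chromatin is assembled, under the coactivator Npat. Their messages end in a stem-loop that is bound by Slbp, and not in a poly(A) tail, although some of the genes can also give polyadenylated messages from sites further downstream, as has been described in differentiated cells. The libraries were prepared with a kit for mRNA, which selects poly(A) tails, so the counts cover the tailed part of the histone RNA and an unknown share of the rest.

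Sol8 is a mouse myoblast line that fuses into myotubes when serum is reduced. Gne encodes the enzyme that begins the synthesis of sialic acid. The 4 groups, of 3 libraries each, were Gne KO differentiated, WT differentiated, Gne KO proliferative and WT proliferative. Differentiated cells were kept in horse serum and proliferative cells in fetal calf serum, so state and serum cannot be told apart. The paper reports that Gne KO cells in differentiation medium stayed mostly single and did not fuse. Differentiation is therefore used here as the name of the change of medium in both genotypes. The Gne KO cells are 1 clone made with Cas9 and carry a frameshifting deletion in a coding exon, and all cells are of the Sol8 line, so the deletion and the clone cannot be told apart either. The labels call the libraries biological replicates. The study's methods speak of triplicates, and its results of 3 independent cultures with triplicates for each sample. Neither says which of these the libraries of a group are, so p-values measure the spread between these libraries. In bulk RNA, fewer cells of a kind and less RNA per cell cannot be told apart.

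The stem-loop that ends the canonical message was found in at least 1 annotated transcript of 40 of the 56 genes, between 21 and 54 bases after the stop codon. Where several transcripts of a gene held it, the one reaching furthest past it was used. It is shown here for the genes on which the results turn, since it is the feature that sets these messages apart. The 16 bases of the stem-loop are in capitals, and the 5 bases on either side, where annotated, in lower case.
Hist1h1c: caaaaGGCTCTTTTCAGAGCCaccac
Hist1h1d: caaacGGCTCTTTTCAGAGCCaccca
Hist1h3d: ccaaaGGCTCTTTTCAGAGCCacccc
Hist1h2ae: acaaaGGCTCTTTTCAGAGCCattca
Hist1h2ap: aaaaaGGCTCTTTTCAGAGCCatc
Hist1h4d: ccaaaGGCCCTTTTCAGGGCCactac
Hist1h4i: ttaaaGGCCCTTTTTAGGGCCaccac
Hist2h4: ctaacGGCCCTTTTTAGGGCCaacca
Hist4h4: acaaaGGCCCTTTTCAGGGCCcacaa
The H1, H2A and H3 genes shown share 1 form, while the H4 genes carry a stem with a different base pair and, in Hist1h4i and Hist2h4, a different loop. The annotated transcript of Hist1h2ap ends 3 bases past its stem-loop, so the right flank printed for it is short. For 16 genes no such element was in any annotated transcript, among them Hist1h1b, Hist1h2bc, Hist2h2be and Hist1h2br.

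Promoter sequence of RefSeq (GRCm38.p6), 250 bases before to 50 after the start, was matched for 48 of the 56 genes by gene ID. Both strands were searched for 4 motifs, matches of which may overlap. These were TATAAA, the core element that places the start of transcription, and ATTTGCAT, the octamer that Oct1 binds. The others were CCAAT, an element of many promoters, and AAACACA, known as the H1 box. The octamer was in 5 of 12 H2A and 5 of 12 H2B promoters, against 1.74% of 32851 promoters of the same length. The H1 box was in 5 of 6 H1 promoters, against 7.18% of all. CCAAT was in every H1, H2A, H2B and H3 promoter matched and in 3 of 11 H4 promoters, against 37.4% of all. TATAAA was in 4 of 6 H1, 7 of 12 H2A, 6 of 12 H2B, 3 of 7 H3 and 7 of 11 H4 promoters, against 13.6%. The promoters of 2 H1 genes and 1 H2B gene whose counts differed between groups are printed with these motifs in capitals. They lie at chr13:23738557-23738856 (plus strand), chr13:23554782-23555081 (plus strand) and chr13:23571150-23571449 (plus strand).
Hist1h1c: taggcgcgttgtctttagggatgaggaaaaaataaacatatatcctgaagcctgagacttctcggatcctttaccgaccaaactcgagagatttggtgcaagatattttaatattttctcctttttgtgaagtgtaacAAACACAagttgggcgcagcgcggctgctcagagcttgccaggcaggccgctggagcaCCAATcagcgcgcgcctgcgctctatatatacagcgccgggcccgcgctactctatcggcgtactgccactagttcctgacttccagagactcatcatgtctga
Hist1h1d: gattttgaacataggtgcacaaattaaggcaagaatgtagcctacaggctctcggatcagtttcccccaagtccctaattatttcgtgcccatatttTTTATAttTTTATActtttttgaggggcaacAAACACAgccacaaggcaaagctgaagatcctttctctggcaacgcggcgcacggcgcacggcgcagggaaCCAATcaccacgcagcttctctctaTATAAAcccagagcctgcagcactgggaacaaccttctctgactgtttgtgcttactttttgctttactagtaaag
Hist1h2bg: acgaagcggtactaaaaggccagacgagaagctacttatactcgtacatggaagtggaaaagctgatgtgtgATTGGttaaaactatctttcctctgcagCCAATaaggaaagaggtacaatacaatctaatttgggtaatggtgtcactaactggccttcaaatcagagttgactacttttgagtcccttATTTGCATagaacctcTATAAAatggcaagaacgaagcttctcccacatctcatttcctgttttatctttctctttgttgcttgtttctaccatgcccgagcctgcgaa
Both H1 promoters hold the H1 box upstream of CCAAT, and the H2B promoter holds the octamer just upstream of TATAAA. These matches are descriptions of the letters and were not tested against the counts. The annotated span of Hist1h1d begins at 23553262, upstream of its printed promoter, so its counts need not come from that start alone.

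The libraries held between 22612038 and 29389759 counted reads. Values below are normalized read counts, that is, reads scaled by TMM factors to the mean library. Gne itself had 205.2 to 211.7 in Gne KO differentiated, 263.8 to 284.8 in WT differentiated, 232.1 to 344.3 in Gne KO proliferative and 255.3 to 278.2 in WT proliferative libraries, and a count over the whole gene does not check a small deletion. All 9 myoblast and myotube markers were expressed, with a summed level of 10741.2 to 11719.9 in Gne KO differentiated, 58634.7 to 67709.4 in WT differentiated, 11977.7 to 17963.8 in Gne KO proliferative and 32953.3 to 69920.8 in WT proliferative libraries, on scaling by library size alone. Of the fibroblast markers 4 of 6 were expressed as well, and on the same scaling their sum was above that of the myoblast and myotube markers in every group. It was 258860.5 to 275055.6 in Gne KO differentiated and 246562.0 to 280326.3 in WT differentiated libraries. In Gne KO proliferative libraries it was 228990.5 to 280828.9, and in WT proliferative libraries 295329.4 to 387670.8. Of the other markers, 1 of 4 immune, 2 of 4 endothelial and 2 of 4 nerve markers averaged at least 10 reads, and the adipocyte and epithelial markers averaged under 10 reads each. WT proliferative replicate 1 stood apart from its group, with 8899.2 normalized counts of the myogenic factor Myog against 2646.6 and 2458.9, and it had the fewest histone reads of its group in every class. These libraries serve as the WT group in both the comparison of genotypes in proliferative cells and the comparison of states in WT cells, so the results of these comparisons are not independent. The part of these markers in the histone values was not tested.

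A check on RNA without poly(A) tails rested on Rn7sk, the 7SK small nuclear RNA. It had 121.7, 54.0 and 175.5 normalized counts in Gne KO differentiated, 224.5, 178.3 and 165.5 in WT differentiated, 95.8, 1418.9 and 412.1 in Gne KO proliferative and 36.4, 245.3 and 197.4 in WT proliferative libraries. Its differences did not pass the test in any comparison (limma, adjusted p between 0.0909 and 0.589). In 4 of 4 groups the library with the lowest Rn7sk count was also the one with the lowest summed histone count, and in 3 of 4 groups the highest coincided too. The part of tail-free RNA in the histone counts was not tested.

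Reads of the 56 histone genes made up between 0.0147% and 0.0406% of a library. Hist1h1c, which encodes the linker histone H1.2 at chr13:23738808-23740367, took between 54.2% and 74.4% of them. Its mean over the 12 libraries was 4485.5 normalized counts, or 2875.3 per kilobase of the longest annotated transcript. Of the 56 genes, 18 had a mean of at least 20 and 23 a mean under 5, so most of the family lay near the limit of detection in these libraries.

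The annotated 3′ end went with the level. The 21 genes with a transcript annotated at least 100 bases past the stem-loop, a limit chosen after the values were seen, had a median of 20.4 counts per kilobase and gave 83.0% of the summed counts. The 19 genes annotated to end closer had a median of 7.63 per kilobase and gave 1.65% of the counts. The 16 genes without a match had a median of 10.4 per kilobase and gave 15.3%, most of it from Hist1h2bc. The annotation reaches 840 bases past the stem-loop in Hist1h1c, 4884 in Hist1h1d, 2010 in Hist1h2ac, 1257 in Hist2h4 and 2445 in Hist4h4, and the sequence past it holds AATAAA, the usual poly(A) signal, in 12 genes. Reads past an annotated end are not counted, and the part of the annotated length in these levels was not tested.

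**Figure D1:**
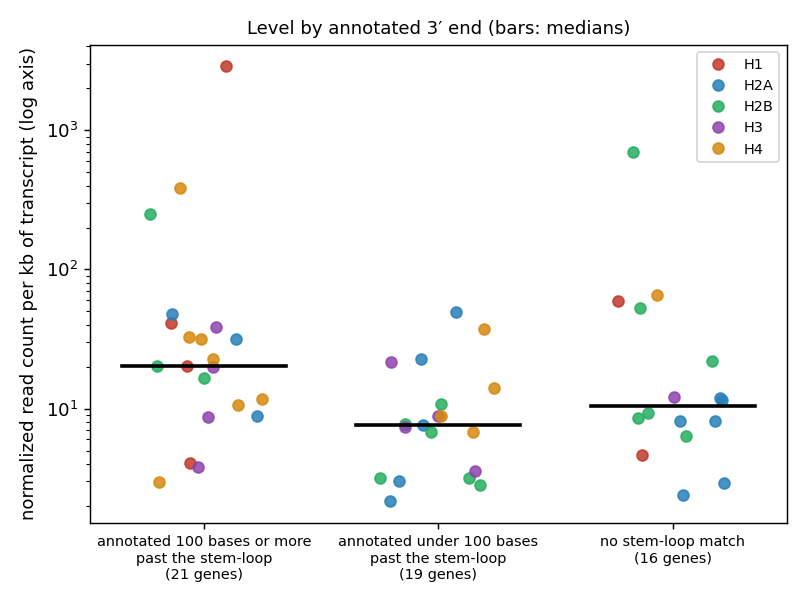
Mean normalized read count per kilobase of the longest annotated transcript (y, log axis) for each of the 56 genes, by annotated 3′ end (x) and coloured by histone class. Bars are medians of 20.4, 7.63 and 10.4, and Hist1h1c is the highest point at 2875.3.

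The next question was how the histone messages changed on differentiation of WT cells. Of the 56 genes 24 rose and 1 fell at an adjusted p under 0.05 (limma voom, Benjamini-Hochberg over 20415 genes), against 16.6% of all genes rising and 15.3% falling. The share of the histone genes that rose was 42.9%, and their median log2 fold change was 0.86, against 0.02 for all genes. By class 5 of 6 H1, 3 of 14 H2A, 8 of 15 H2B, 2 of 9 H3 and 6 of 12 H4 genes rose. Without WT proliferative replicate 1, the library that stood apart, 14 genes rose and the median was 0.67. An effect filter, taken from the study's methods and asking for a larger fold change the lower the level, was met by 6 genes, against 2.7% of all genes.

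Among the H1 genes, Hist1h1d, encoding H1.3, had 1086.0, 827.2 and 685.1 normalized counts in WT differentiated libraries, against 43.3, 126.6 and 94.7 in WT proliferative ones, with no overlap. The log2 fold change was 3.45 with a standard error of 0.50 (adjusted p = 7.8e-05, limma), and values after ± beside later fold changes are standard errors too. Hist1h1b, encoding H1.5, had 112.2, 105.5 and 65.2 against 8.67, 21.1 and 28.5, a log2 fold change of 2.43 ± 0.41 (adjusted p = 0.000298, limma). Hist1h1c had 6314.4, 6455.2 and 5055.7 in WT differentiated and 3185.7, 3588.0 and 3643.3 in WT proliferative libraries, and the smaller change of 0.77 ± 0.23 had an adjusted p of 0.0193 by limma. That call was lost without WT proliferative replicate 1, WT differentiated replicate 1 or WT differentiated replicate 2, at an adjusted p of at most 0.0786, although the groups did not overlap.

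Among the core histones, the replication-dependent H3 gene Hist1h3d had 90.2, 99.9 and 85.3 normalized counts in WT differentiated libraries, against 24.3, 25.5 and 31.9 in WT proliferative libraries. The log2 fold change was 1.75 ± 0.22 (adjusted p = 1.9e-05, limma), and the groups lay far apart. The H2B gene Hist1h2bc, second in level with 693.6 counts per kilobase, had 917.1, 1000.9 and 965.0 in WT differentiated and 433.3, 470.7 and 520.3 in WT proliferative libraries, with a log2 fold change of 1.03 ± 0.21. The H4 gene Hist1h4i had 409.6, 366.0 and 386.2 against 132.6, 232.0 and 186.0, a log2 fold change of 1.14 ± 0.24. None of the groups overlapped for these genes, and the adjusted p was 0.00126 for Hist1h2bc and 0.0016 for Hist1h4i (limma). The H2A genes Hist1h2ac and Hist3h2a rose by 1.78 ± 0.38 and 1.22 ± 0.21 on the log2 scale, and the H2B genes Hist1h2be, Hist2h2be and Hist1h2bh by 1.67, 0.86 and 0.96. Hist1h4d rose by 2.65 ± 0.70 with WT proliferative replicate 1 at 1.73 normalized counts, and its adjusted p of 0.00838 (limma) became 0.0622 without that library. Hist1h2bg rose by 1.15 ± 0.41 with an adjusted p of 0.0439 (limma), a call that ended without WT proliferative replicate 1 or 3, any 1 WT differentiated library, Gne KO proliferative replicate 2 or 3, or Gne KO differentiated replicate 3.

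**Figure D2:**
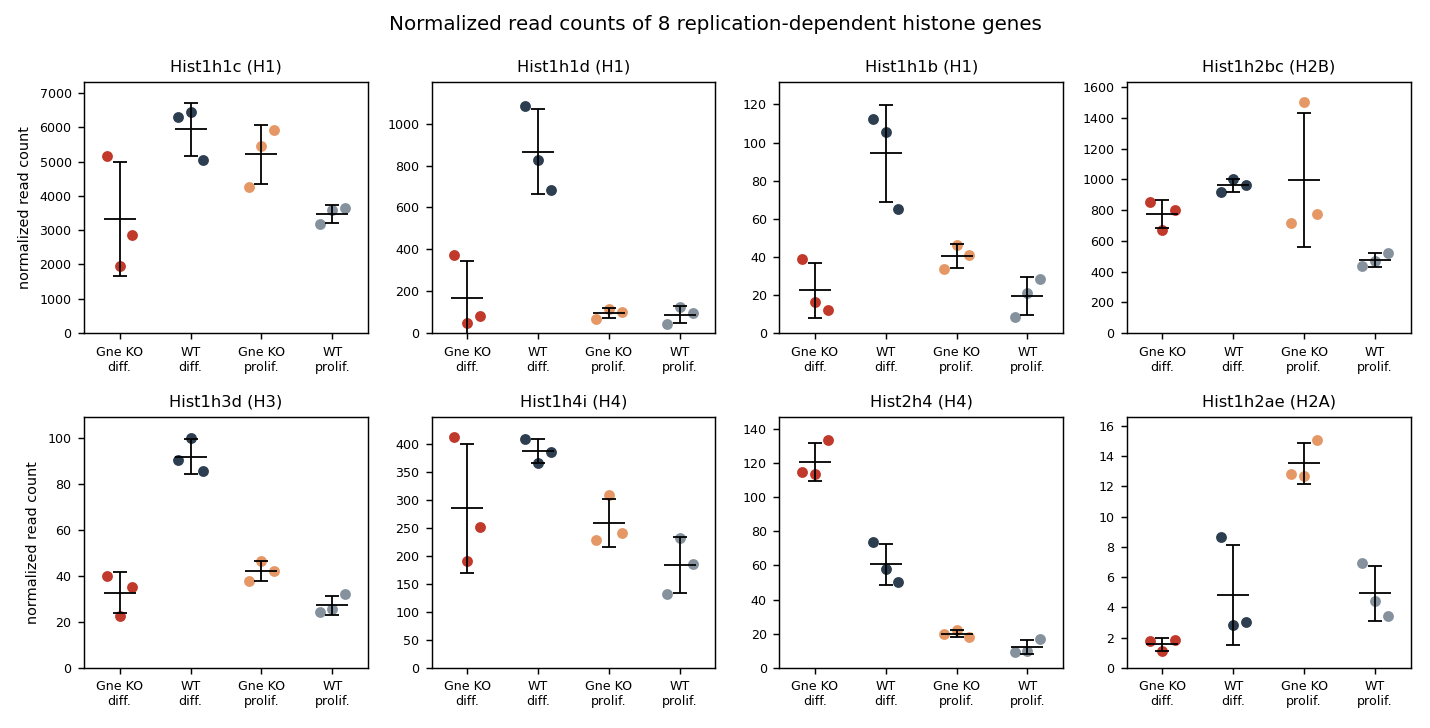
Normalized read counts (y, linear from 0) of 8 histone genes in the 3 libraries of each group (points, replicates 1 to 3 from left to right) with mean and SD (bars). Hist1h1d, Hist1h1b and Hist1h3d are highest in WT differentiated libraries, Hist2h4 is high in differentiated libraries of both genotypes, and Gne KO differentiated replicate 1 is the highest of its group for Hist1h1c at 5158.5.

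The same change of medium was then read in Gne KO cells. Their summed myoblast and myotube markers did not rise with it, on scaling by library size alone. The sum was 10741.2 to 11719.9 in Gne KO differentiated and 11977.7 to 17963.8 in Gne KO proliferative libraries. Of the 56 genes 2 rose and 12 fell, against 28.7% of all genes rising and 27.7% falling, so the share that fell, 21.4%, was no larger than among all genes. Their median log2 fold change was -0.68, against 0.07 for all genes, and 2 genes met the effect filter, against 11.7% of all. The negative median lay in genes of low count. It was 0.03 for the 18 genes that averaged 20 counts or more, 9 of them positive and 9 negative, -1.18 for the 38 that averaged fewer, and 0.05 when at least 10 counts in 3 libraries were asked for. That filter can keep a gene through the group where it is high. With the GC and length trend removed the median of the 56 genes was -0.43, and with 1 library left out it lay between -1.04 and -0.37. Of the 24 genes that rose in WT cells, 2 rose in Gne KO cells, 2 fell, and 20 did not pass the test. The 2 that fell were Hist1h1c and Hist1h1e, which encodes H1.4. Hist1h1c had 5158.5, 1949.9 and 2851.8 normalized counts in Gne KO differentiated libraries, against 4247.6, 5467.5 and 5908.6 in Gne KO proliferative libraries. The groups overlapped because of replicate 1, and the log2 fold change was -0.75 ± 0.24 (adjusted p = 0.0132, limma), a call lost without Gne KO proliferative replicate 3 or Gne KO differentiated replicate 2. Hist1h1e fell by 1.45 on the log2 scale (SE 0.49), with its groups overlapping and its call lost in 4 of the 12 omissions, those of Gne KO proliferative replicates 2 and 3 and of Gne KO differentiated replicates 2 and 3. With the GC and length trend removed both calls ended, at -0.33 for Hist1h1c (adjusted p = 0.243, limma) and -1.10 for Hist1h1e (adjusted p = 0.0659, limma).

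Gne KO differentiated replicate 1 stood above replicates 2 and 3 for many of the genes. Hist1h1d had 372.1, 47.6 and 81.7 normalized counts there, and Hist1h2bg 273.9, 37.8 and 122.6. The count of genes that fell was 19 without Gne KO proliferative replicate 1 and 7 without Gne KO proliferative replicate 3, and 4 rose without Gne KO proliferative replicate 2 or Gne KO differentiated replicate 2. On scaling by library size alone 7 genes rose and 8 fell, and over all genes that scaling shifted the median of this comparison to 0.34 on the log2 scale. The lowest p-values among the genes that fell belonged to 2 genes of low level. Hist1h2ae (H2A) had 1.74, 1.08 and 1.86 in Gne KO differentiated and 12.8, 12.7 and 15.1 in Gne KO proliferative libraries, a log2 fold change of -2.79 ± 0.49 (adjusted p = 0.00014, limma). Hist4h4 (H4, cluster 4) had 3.48, 1.08 and 2.79 against 10.9, 30.1 and 21.5, a log2 fold change of -2.79 ± 0.62 (adjusted p = 0.00114, limma). Neither gene overlapped between these groups.

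The interaction of genotype and state tests whether the change on differentiation differs between Gne KO and WT cells. It was lower for 23 of the 56 genes, or 41.1%, and higher for 0 genes (limma voom, adjusted p under 0.05), against 22.2% of all genes lower and 19.7% higher. At an unadjusted p under 0.05, 26 were lower and 0 higher, and limma-trend also had 0 higher. The median was -1.31 for the histone genes and -0.02 for all genes, and 8 genes met the effect filter, against 8.53% of all. Hist1h1b stood at -3.40 ± 0.60, Hist1h3d at -2.12 ± 0.32, Hist1h1c at -1.52 ± 0.33, Hist1h2bc at -1.30 ± 0.29 and Hist1h1d at -3.07 ± 0.77 on the log2 scale, with adjusted p between 0.000113 and 0.00483 (limma), and each kept its call without any 1 library. Without WT proliferative replicate 1, 14 genes were lower and the median was -1.01. S phase, mitosis, chaperone and variant genes, read further below, were lower by the interaction in larger shares than the cluster genes. Of 42 S phase genes 30 were lower and 4 higher, and of 20 mitosis genes 13 and 2. Of 20 chaperones 12 were lower and 3 higher, and of 11 variants 9 and 0. Of 19 genes of histone 3′ end processing and transcription 5 were lower and 6 higher. Of 11 poly(A) polymerase and exosome genes 1 was lower and 7 higher. No test compared the lists.

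**Figure D3:**
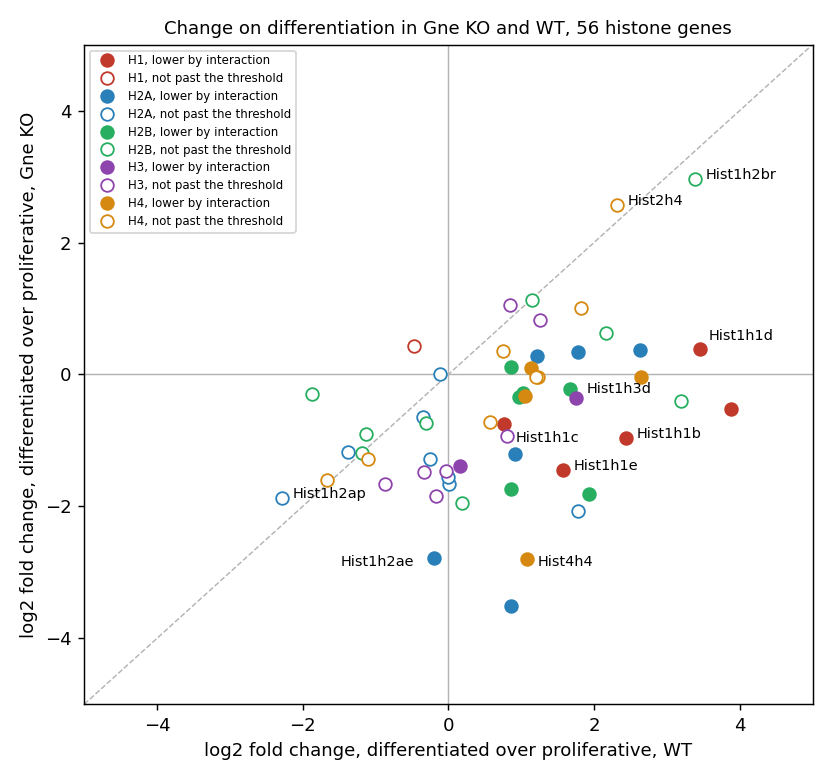
Log2 fold change of differentiated over proliferative cells in Gne KO (y) against that in WT (x) for the 56 genes, coloured by class, with the genes that were lower by the interaction filled. Hist2h4 and Hist1h2br lie near the dashed line of equal change, while Hist1h1d lies at 3.45 in WT and 0.39 in Gne KO.

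Within differentiated cells, 13 of the 56 genes were lower in Gne KO than in WT and 1 was higher, against 12.5% of all genes lower and 11.1% higher. The share of the histone genes that were lower was 23.2%, and their median log2 fold change was -0.90, against -0.01 for all genes. The effect filter was met by 2 genes, Hist1h1b and Hist1h1d, against 3% of all. Without Gne KO differentiated replicate 2 the count was 8 and the median -0.49, and by limma-trend the median was -0.61. By class 5 of 6 H1, 2 of 14 H2A, 4 of 15 H2B, 1 of 9 H3 and 1 of 12 H4 genes were lower. Hist1h1d had 372.1, 47.6 and 81.7 normalized counts in Gne KO differentiated libraries, against 1086.0, 827.2 and 685.1 in WT differentiated libraries, with a log2 fold change of -2.83 ± 0.45 (adjusted p = 0.000226, limma). Hist1h1b had 39.1, 16.2 and 12.1 against 112.2, 105.5 and 65.2, a log2 fold change of -2.17 ± 0.39. Hist1h3d had 40.0, 22.7 and 35.3 against 90.2, 99.9 and 85.3, a log2 fold change of -1.49 ± 0.21 (adjusted p = 7.53e-05, limma). The groups did not overlap for any of the 3. Hist1h1c overlapped through Gne KO replicate 1 and was lower by -0.94 ± 0.24 (adjusted p = 0.00808, limma), while Hist1h1e and Hist1h2be were lower by -1.90 ± 0.47 and -1.09 ± 0.23 without overlap. Hist1h2bc and Hist1h4i stood at -0.31 ± 0.20 and -0.49 ± 0.22 and did not pass the test, although Hist1h2bc passed without Gne KO proliferative replicate 2 and Hist1h4i without Gne KO differentiated replicate 1. Mitosis genes and histone variants, read further below, were lower in larger shares than the cluster genes. In this comparison 16 of 20 mitosis genes and 5 of 11 variants were lower, with 0 higher in either list. Of 42 S phase genes 7 were lower and 2 higher, and of 20 chaperones 2 and 0. Of 19 genes of histone 3′ end processing and transcription 1 was lower and 5 higher.

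Within proliferative cells, 13 of the 56 genes were higher in Gne KO than in WT and 0 were lower by limma voom, against 28.2% of all genes higher and 27.2% lower, so the share that was higher, 23.2%, was no larger than among all genes. At an unadjusted p under 0.05, 20 were higher and 2 lower, and limma-trend had 1 lower. The median log2 fold change was 0.62, against -0.02 for all genes, and 1 gene, Hist1h4d, met the effect filter, against 9.25% of all. Hist1h2bc had 716.2, 1499.9 and 775.8 normalized counts in Gne KO proliferative libraries, against 433.3, 470.7 and 520.3 in WT proliferative libraries. It was higher by 0.99 ± 0.21 on the log2 scale, without overlap (adjusted p = 0.000815, limma). Hist2h2be (H2B, cluster 2) had 170.9, 129.5 and 127.0 against 86.7, 91.0 and 100.4, a log2 fold change of 0.62 ± 0.16. Hist4h4, at 10.9, 30.1 and 21.5 against 2.60, 6.66 and 1.14, changed by 2.54 ± 0.61. These 3 genes and Hist1h2ae were the ones that passed without any 1 library. Hist1h1c was higher by 0.57 ± 0.24 with an adjusted p of 0.0499 (limma) and that call was lost in 9 of the 12 omissions, those of Gne KO proliferative replicate 1 and Gne KO differentiated replicates 1 and 2 excepted. The count was 4 without WT proliferative replicate 1, 7 without Gne KO proliferative replicate 2 or 3, and 21 without Gne KO proliferative replicate 1. It was 7 once each library had been corrected for GC content and transcript length, and Hist1h1c then had an adjusted p of 0.763 and Hist1h2ae of 0.0507 (limma). The median was 0.34 with that correction, 0.25 with it and the replicate block, and 0.37 without WT proliferative replicate 1.

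Summed over the 56 genes, Gne KO differentiated libraries held 8155.5, 3598.3 and 4907.8 normalized counts, WT differentiated libraries 10419.5, 10167.4 and 8480.4, Gne KO proliferative libraries 6036.5, 8478.8 and 8058.5 and WT proliferative libraries 4282.8, 5265.4 and 5146.0. WT differentiated libraries were thus the highest, and Gne KO differentiated libraries the most spread. No test was run on these sums, which Hist1h1c dominates. H1 averaged 3531.6 ± 1856.8 in Gne KO differentiated and 6980.4 ± 966.3 in WT differentiated libraries (SD, n = 3 each). H2A averaged 236.4 ± 71.6 in Gne KO differentiated and 326.1 ± 24.9 in WT differentiated libraries. H2B averaged 1171.4 ± 246.0 in Gne KO differentiated and 1604.8 ± 62.6 in WT differentiated libraries. H3 averaged 83.9 ± 19.5 in Gne KO differentiated and 157.4 ± 7.7 in WT differentiated libraries. H4 averaged 530.5 ± 157.6 in Gne KO differentiated and 620.5 ± 62.4 in WT differentiated libraries, a difference smaller than the spread. The H1, H2B and H3 sums did not overlap between these groups, with H1 at most 5605.4 in Gne KO differentiated and at least 5867.2 in WT differentiated libraries and H2B at most 1426.8 in Gne KO differentiated and at least 1536.8 in WT differentiated libraries. The H2A and H4 sums overlapped through Gne KO differentiated replicate 1. The ratio of the means of differentiated over proliferative WT cells lay between 1.93 for H1 and 2.31 for H4, and in Gne KO cells between 0.654 for H1 and 1.26 for H4.

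**Figure D4:**
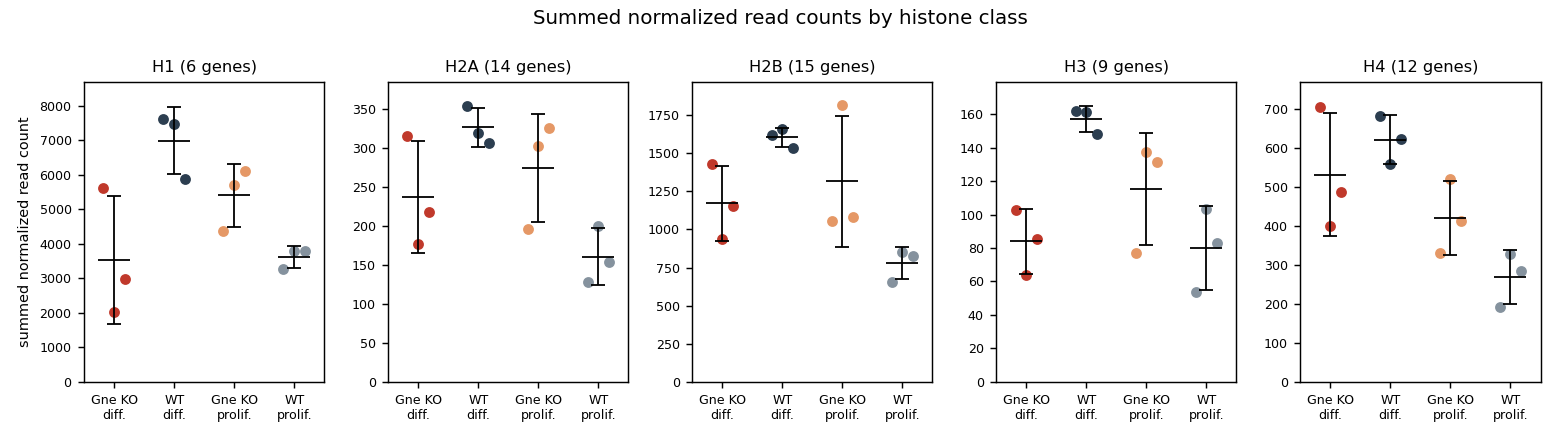
Summed normalized read counts (y, linear from 0) of the genes of each histone class in the 3 libraries of each group (points) with mean and SD (bars). WT differentiated libraries lie above WT proliferative libraries in all 5 classes, and the H1 sum of Gne KO differentiated libraries spreads between 2023.4 and 5605.4.

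A few genes went their own way. Hist2h4 (H4, cluster 2) had 114.8, 113.5 and 133.7 normalized counts in Gne KO differentiated, 73.9, 57.9 and 50.2 in WT differentiated, 19.8, 22.0 and 18.3 in Gne KO proliferative and 9.53, 9.99 and 17.1 in WT proliferative libraries. It rose on differentiation in both genotypes, by 2.56 ± 0.24 in Gne KO and 2.32 ± 0.29 in WT cells, and was the 1 histone gene higher in Gne KO than in WT differentiated cells (log2 fold change 1.00 ± 0.18, adjusted p = 0.000579, limma). Hist1h2br (H2B) rose in both genotypes as well, by 2.96 ± 0.89 in Gne KO cells, a call lost without Gne KO proliferative replicate 3, and by 3.38 ± 0.67 in WT cells. It was lower in Gne KO than in WT differentiated cells, by -1.64 ± 0.49, a call lost without replicates 2 or 3 of Gne KO or replicates 1 or 2 of WT. Hist1h2ap (H2A), whose annotation ends at the stem-loop, fell in both genotypes. It had 5.22, 15.1 and 17.6 in Gne KO differentiated against 29.6, 26.6 and 89.3 in Gne KO proliferative libraries, and 7.67, 6.54 and 3.01 in WT differentiated against 42.5, 27.8 and 17.1 in WT proliferative libraries. The log2 fold changes were -1.87 ± 0.54 in Gne KO and -2.28 ± 0.67 in WT cells, and the calls were lost without Gne KO differentiated replicate 1 and without WT proliferative replicate 1 or WT differentiated replicate 3.

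Many H2A and H2B genes lie head to head and share the stretch between their starts. Of 11 such pairs within 1000 bases, 10 joined an H2A with an H2B gene. Hist1h2ap and Hist1h2br form such a pair, with 236 bases between their starts, and moved in opposite directions on differentiation in both genotypes. Hist1h2ae and Hist1h2bg are 176 bases apart, and on differentiation in Gne KO cells Hist1h2ae fell, whereas Hist1h2bg had a log2 fold change of 1.12 ± 0.58 that did not pass the test. Hist1h2ac and Hist1h2bc, 251 bases apart, both rose in WT cells. The difference between the genes of a pair was not tested.

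Near-identical copies limit what can be said of single genes. In 23 of the 56 genes at least 50% of the 75-base stretches of the transcripts also occur in other genes, 92.6% in Hist1h2ap and 87.1% in Hist1h2br, and reads from these could not be placed with certainty. Of the other 33 genes 18 rose on differentiation of WT cells, and 20 were lower by the interaction, so the counts lay mostly on genes with sequence of their own. A total of 16 genes, every H2A gene among them, are overlapped on the other strand by another annotated gene. On the same strand 5 genes are overlapped, among them Hist1h2ac and Hist3h2a, and Hist1h1e and Hist1h2be by each other. The values of all these genes are uncertain where reads could go to either gene.

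The genes annotated past the stem-loop and those that end near it were set side by side. On differentiation of WT cells 15 of the 21 extended genes rose, with a median log2 fold change of 1.22, and 4 of the 19 short ones rose and 1 fell, with a median of -0.17. Of all genes 16.6% rose and 15.3% fell in that comparison. In Gne KO cells 1 of the 21 extended genes rose and 5 fell, with a median of -0.33, and 6 of the 19 short genes fell, with a median of -1.28. The shares that fell, 23.8% and 31.6%, lay on either side of the 27.7% of all genes that fell there, while 28.7% of all genes rose. The short genes had few reads, and the difference between these sets was not tested.

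Genes of S phase were read beside the cluster genes. For these and the lists that follow, 28.7% of all genes rose and 27.7% fell on differentiation of Gne KO cells, and 16.6% rose and 15.3% fell on that of WT cells. Of 42 genes of DNA replication and S phase 41 fell in WT cells, with a median log2 fold change of -0.84, and 39 fell in Gne KO cells, with a median of -1.46. In proliferative cells 29 were higher in Gne KO than in WT and 5 lower, against 28.2% and 27.2% of all genes, and in differentiated cells 2 were higher and 7 lower, against 11.1% and 12.5%. Uhrf1, which recruits DNA methylation to newly replicated DNA, fell by 2.19 on the log2 scale in Gne KO and by 1.21 in WT cells. Of 20 mitosis genes 15 fell in Gne KO and 16 in WT cells. The median of the cluster genes in WT cells, 0.86, stands beside these values without a test between the lists. In Gne KO cells their median was -0.68. With at least 10 counts in 3 libraries asked for, the medians were 1.22 in WT and 0.05 in Gne KO cells. A gene can meet that filter through the group where it is high, so these filtered values lend the medians no support.

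**Figure D5:**
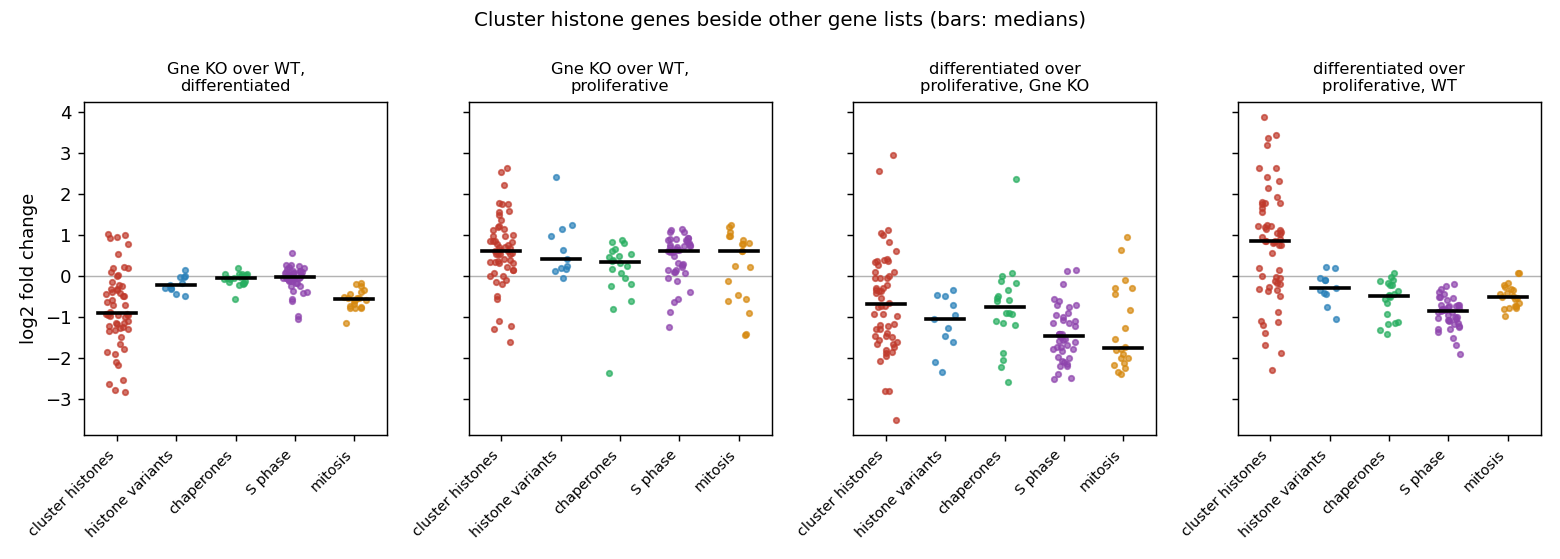
Log2 fold changes (y) of the 56 cluster histone genes, 11 histone variants outside the clusters, 20 histone chaperones, 42 S phase genes and 20 mitosis genes in 4 comparisons (panels), each point a gene and each bar a median. In the panel of WT differentiation the cluster genes have a median of 0.86 and the S phase genes of -0.84.

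The histone genes outside the clusters mostly give polyadenylated messages. How the messages of each of them end was not examined, and they were not tested against the cluster genes. Of 11 such variants 11 fell on differentiation of Gne KO cells, against 27.7% of all genes. In WT cells 5 fell, 1 rose and 5 did not pass the test, against 15.3% of all genes falling and 16.6% rising. H2afz, encoding H2A.Z, fell by 1.45 in Gne KO and by 1.03 in WT cells, and H2afx, encoding H2A.X, fell by 2.09 in Gne KO and by 0.76 in WT cells. H3f3a, encoding H3.3, fell by 0.33 in Gne KO cells and rose by 0.20 in WT cells on the log2 scale. H1f0, the linker histone H1.0 of resting cells, fell by 0.94 in Gne KO cells and stood at -0.09 ± 0.09 in WT cells.

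Regulators of the cluster genes were read in the same fit. The other settings and the omissions of a library were read for the cluster genes only. The values of the regulators and of the lists therefore carry no such check, including that on GC content and length. Slbp, the stem-loop binding protein, had 1251.2, 1383.5 and 1249.9 normalized counts in Gne KO differentiated, 1175.2, 1108.2 and 970.0 in WT differentiated, 2331.2, 1834.1 and 1900.3 in Gne KO proliferative and 1754.0, 1922.8 and 2108.6 in WT proliferative libraries. It fell on differentiation in both genotypes, by 0.64 in Gne KO and 0.83 in WT cells, and did not differ past the test between genotypes in either state (adjusted p = 0.102 in differentiated and 0.612 in proliferative cells, limma). Npat had 980.9, 750.5 and 708.0 in Gne KO proliferative against 1975.9, 2046.0 and 2035.6 in WT proliferative libraries, a log2 fold change of -1.32 ± 0.10. On differentiation Npat rose by 0.70 ± 0.10 in Gne KO cells and fell by 0.65 in WT cells. Casp8ap2, a partner of Npat also known as FLASH, was lower by -1.97 ± 0.13 in Gne KO than in WT proliferative cells, and on differentiation rose by 1.42 ± 0.14 in Gne KO and fell by 0.76 in WT cells. Of the 19 genes of histone 3′ end processing and transcription, 6 rose and 11 fell in Gne KO cells, against 28.7% and 27.7% of all genes, and 1 rose and 10 fell in WT cells, against 16.6% and 15.3%. The chaperones that carry histones to DNA mostly fell, 15 of 20 in Gne KO and 14 of 20 in WT cells, with Asf1b down by 2.59 in Gne KO and 1.41 in WT cells. Of 11 genes of poly(A) polymerases and the exosome 6 rose and 4 fell in Gne KO cells, against 28.7% and 27.7% of all genes, and 9 fell in WT cells, against 15.3%.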

How the data were processed

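Reads of 75 bases came from 1 end of the fragments of a stranded poly(A) library. Tools listed by the submitters' processing notes are TopHat2 2.1.1, cutadapt 1.18, HTSeq 0.6.1 and DESeq2 1.22.1, with the build GRCm38, and the sources used here do not give the strand setting of the counting. The authors deposited 1 table of raw read counts, normalized counts, and fold changes and adjusted p-values of their own comparisons, of which only the raw counts were used. Of 54838 genes, 6252 hold question marks in place of counts, among them most small RNA genes. These columns were therefore treated as a mixed unit, other than plain counts, and limma voom was used in place of a count model. The planned check on small RNA without tails could use only Rn7sk and Terc, and Terc had at most 3.73 normalized counts in any library.

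A sum of 10 counts over the 12 libraries was the minimum for a test, met by 20415 genes. The 4 groups were fitted together with limma 3.58.1 (R 4.3.3) after TMM scaling, written in base R with trims of 30% and 5%. P-values were adjusted by Benjamini and Hochberg over all genes, with a threshold of 0.05. The effect filter also required that the mean normalized count reach 5 and that the log2 fold change, taken without its sign, exceed the sum of 0.9 and of 7.5 over the root of that mean. The fit was tested on simulated data. At these depths the standard error of a log2 fold change between 2 groups ran from 0.14 for Hist2h2be to 1.00 for Hist1h2br among the genes named.

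Genes and transcripts are of GENCODE M21 and promoters of RefSeq, both on GRCm38. The histone genes named were the 15 with the highest mean count and, in each comparison, the 2 with the lowest adjusted p in each direction, and Slbp, Npat and Casp8ap2 were always named. In the other lists the 2 genes with the lowest p in each comparison could be named, as could any histone variant. Of 128 genes in these lists 5 were not tested. The genes and lists were chosen with earlier results of these data known. Replicates of a group differed by more than sampling noise (chi-square per gene at least 4.77). Alternatives changed the scaling, the test, the filter, the libraries in the fit, a trend in GC content and length, and the replicate block.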

Additional observations from a re-analysis of the deposited data

Results flagged for a closer look

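The change on differentiation differed between Gne KO and WT cells, by the interaction of genotype and state in limma voom, for 23 histone genes, all of them lower. Larger shares of the S phase, mitosis, chaperone and histone variant lists were lower by that interaction as well. Among the genes named, the difference of the log2 fold changes (Gne KO minus WT) was -1.52 for Hist1h1c, -3.07 for Hist1h1d, -3.40 for Hist1h1b and -3.03 for Hist1h1e in class H1. It was -0.94 for Hist3h2a, -1.44 for Hist1h2ac and -2.60 for Hist1h2ae in class H2A, and -1.30 for Hist1h2bc, -0.75 for Hist2h2be, -1.89 for Hist1h2be and -1.31 for Hist1h2bh in class H2B. In classes H3 and H4 it was -2.12 for Hist1h3d, -1.03 for Hist1h4i, -2.69 for Hist1h4d and -3.87 for Hist4h4. Of these genes, Hist1h4i, Hist3h2a, Hist1h2ac and Hist1h4d lost the call when at least 1 library was left out, WT proliferative replicate 1 among them each time, with an adjusted p of at most 0.074, 0.068, 0.151 and 0.101. Hist3h2a lost it with that library alone, Hist1h4i and Hist1h4d also without WT differentiated replicate 1, Gne KO proliferative replicate 2 or Gne KO differentiated replicate 2, and Hist1h2ac without replicates 1 or 3 of either WT group or replicates 2 or 3 of either Gne KO group. The call of Hist1h4i also ended with the GC and length trend removed, at -0.72 (adjusted p = 0.116, limma), while the other genes named kept theirs under that setting.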

How the results depend on the processing

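The counts of genes in the proliferative comparison and in the differentiation of Gne KO cells depended most on the processing. In proliferative cells, the 13 genes higher in Gne KO became 6 on scaling by library size alone, 8 without a filter, 7 with only the libraries compared and 7 with the GC and length trend removed. The 0 genes lower became 2 on scaling by library size alone, 1 on median-of-ratios scaling, 1 by limma-trend, 1 with only the libraries compared and 2 with the GC and length trend removed, with or without the replicate block. In differentiation of Gne KO cells, the 2 genes that rose became 7 on scaling by library size alone, 4 on median-of-ratios scaling, 4 with at least 10 counts in 3 libraries and 4 with the trend removed, or 5 with the block too, and the 12 that fell became 6 under that filter and 7 with the trend removed and the block. The cause of these shifts was not tested. Leaving out 1 library gave 4 to 21 genes higher and 0 to 1 lower in Gne KO proliferative cells, 8 to 15 lower in Gne KO differentiated cells, 14 to 25 that rose and 0 to 2 that fell in differentiation of WT cells, 2 to 4 that rose and 7 to 19 that fell in differentiation of Gne KO cells, and 14 to 27 lower by the interaction. Samples with the same replicate number did not deviate together (correlations between -0.274 and 0.069 over 18 pairs, none over 0.1). Pairs with other numbers lay between -0.236 and 0.293. These correlations gave no sign of pairing by number, but with 3 libraries per group they cannot exclude it. With the replicate block 12 genes were higher in Gne KO proliferative cells, 13 lower in Gne KO differentiated cells, 22 rose in WT and 11 fell in Gne KO differentiation, and 24 were lower by the interaction. For the genes named, 772 of the 836 values under other settings and 1044 of the 1140 with 1 library left out kept their side of the threshold, and no value past the threshold changed sign. Depth limits the 23 genes with a mean under 5 counts most.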
